A study of Saccharomyces cerevisiae with 2 samples.

Results

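Yeast enzymes that carry glucose to pyruvate and ethanol, return carbon to glucose, or branch into acetate, glycerol and the pentose phosphate pathway were followed here through the signals of their genes. The members were 47 genes named by symbol, chosen as the enzymes of these steps and of fructose bisphosphate signalling. The rule uses no measured value, although the list was drawn up with earlier results of these data known. Of these, 46 had at least 1 probe set assigned to that gene alone, out of 5656 genes measured this way, and TDH2 was covered by shared probe sets. The arrays came from budding yeast (Saccharomyces cerevisiae) whose histone H3 was the K4,36,79R mutant, in which arginine replaces the lysines at positions 4, 36 and 79. Cells had first grown in selective galactose medium, which also allowed wild-type H3 to be made. They were then kept for 18 hours in selective glucose medium, where wild-type H3 is shut off and the mutant is the sole source of H3. Both samples belong to that 1 group, replicates 1 and 2, from separate cultures harvested at an OD600 of 0.5 to 0.7. The sources used here name neither the strain background nor the number of clones. Wild-type cultures and other times were not analysed here, so the values describe the mutant at 1 time and the spread between its 2 arrays, and no difference was tested.

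In glycolysis each glucose is phosphorylated, split and oxidised to pyruvate, and in fermenting yeast pyruvate decarboxylase and alcohol dehydrogenase turn the pyruvate into ethanol. Many steps are encoded by several genes, often with one isoenzyme made in abundance on glucose and others made on poor carbon sources or in slow growth. Gluconeogenesis runs most of the same steps backward and needs its own enzymes at the irreversible ones. The genes for those enzymes are classical targets of glucose repression, which acts through the Snf1 kinase and the Mig1 repressor.

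Values are MAS5 signals, the Affymetrix summary of the probe pairs in a probe set, in arbitrary units, with replicate 1 before replicate 2. Probe sets differ in affinity, so signals of different genes stand side by side here and their order is not an order of transcript number. In RNA of a whole culture, fewer cells using a gene and less RNA per cell cannot be told apart. The median signal over the 46 members was 242.9 and 243.8 on the arrays, beside 39.0 and 39.7 over all 5656 genes. All 46 members exceeded the background on both arrays, set by 13 foreign probe sets at 1.86 and 1.69. So did 98.7% of all genes, and passing it therefore says little about expression. The dimmest member value was 20.0 on replicate 1 and 21.3 on replicate 2, and 5 members lay below the median of all single-gene probe sets, 35.2.

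As a check of the growth state in the labels, genes of galactose use and of glucose uptake were read out, with no level to compare them with. GAL1, the galactokinase, had 7.23 and 6.67, GAL7 had 19.0 and 15.7, GAL10 had 38.7 and 26.6, and the permease gene GAL2 had 13.5 and 12.1. Genes for glucose-induced transporters gave 89.1 and 107.9 (HXT1) and 755.9 and 813.2 (HXT3). As deposited, all 4 galactose genes were lower and both transporter genes higher on replicate 2, where 56.4% of all genes were higher. The galactose genes were dim, with means from 6.95 to 32.7, below the median of all single-gene probe sets, 35.2.

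**Figure D1:**
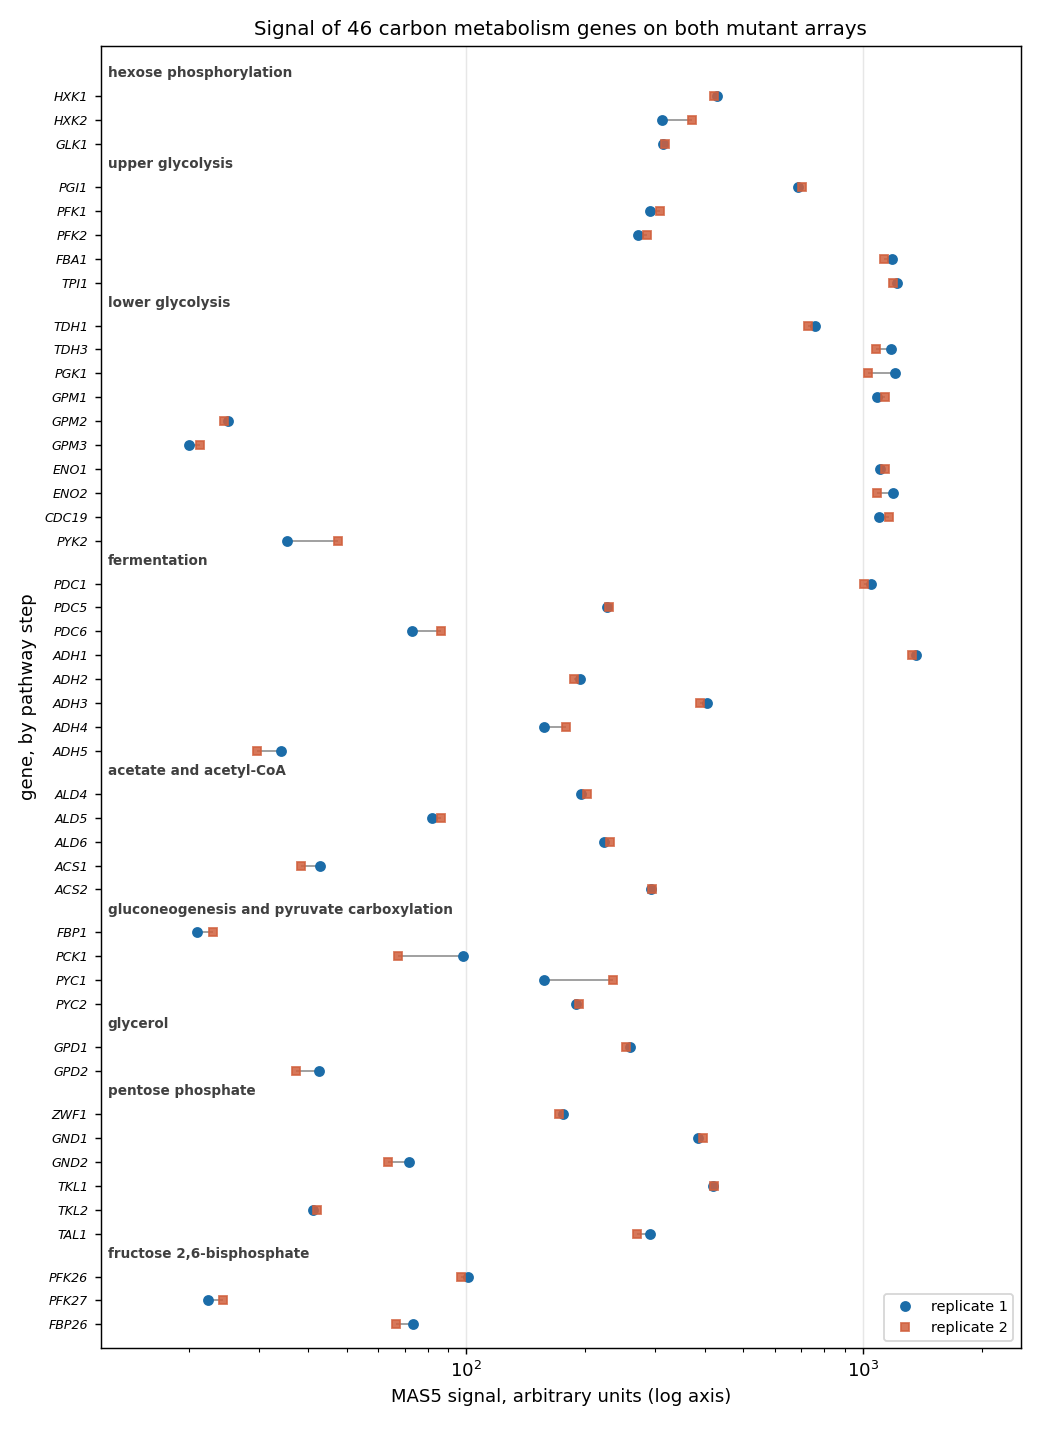
Signal of each of the 46 genes on replicate 1 (blue circles) and replicate 2 (orange squares), on a log axis in arbitrary units, by pathway step from hexose phosphorylation down to fructose 2,6-bisphosphate; a grey line joins the arrays. Of these genes, 10 lie above 1000 and the lines are longest for PYC1, PCK1 and PYK2.

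Glucose is phosphorylated by any of 3 enzymes, and the genes for all of them gave similar signals on both arrays. HXK2, the hexokinase that predominates on glucose and also takes part in glucose repression, had 311.9 and 370.5 (mean 341.2 ± 41.4, SD, n = 2). HXK1, a hexokinase gene repressed by glucose, had 429.7 and 420.9. GLK1, the glucokinase gene, also known to be glucose-repressed, had 314.4 and 318.3. As deposited, HXK2 thus differed between the cultures by 1.19-fold while HXK1 and GLK1 differed by 1.02-fold and 1.01-fold. After centring on probe sets with neighbouring numbers, log2 differences were 0.16 for HXK2, -0.14 for HXK1 and 0.01 for GLK1. How far HXK2 and HXK1 differ in the size of their gaps therefore depends on the scaling. A further probe set that detects GLK1 together with a gene outside the list was not used.

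The next steps rearrange the hexose phosphate and cleave it. PGI1, phosphoglucose isomerase, had 685.6 and 704.9. Phosphofructokinase, the main committed step, is built from the products of PFK1 and PFK2, its alpha and beta subunits. PFK1 had 290.3 and 307.6, and PFK2 had 271.3 and 286.2. The subunit genes had log2 differences (replicate 2 minus replicate 1) of 0.08 each as deposited. Such differences were common. Among the 415 genes with mean signals from 256 to 1024, 195 were at least as far apart as PFK1 and 209 as PFK2. FBA1, the aldolase, had 1185 and 1130, and TPI1, triose phosphate isomerase, had 1223 and 1195. These last genes are single-copy steps of the pathway and were among the brightest members.

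In the lower part of the pathway the bright genes bunched in a narrow band. PGK1, phosphoglycerate kinase, had 1207 and 1033 (mean 1120 ± 122.7, SD, n = 2), the widest gap among the members above 1000. GPM1, the active phosphoglycerate mutase, had 1087 and 1139, against 25.2 and 24.5 for GPM2 and 20.0 and 21.3 for GPM3, homologues that do not replace it. CDC19, the main pyruvate kinase, had 1100 and 1167. Its paralogue PYK2 (YOR347C), which is repressed by glucose, had 35.3 and 47.5 (mean 41.4 ± 8.62, SD, n = 2). PYK2 was 1.35-fold higher on replicate 2, where CDC19 was 1.06-fold higher.

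Glyceraldehyde phosphate dehydrogenase and enolase are each made by near-identical genes, and the array reads them in part together. TDH3, the main dehydrogenase gene of fermenting cells, had 1176 and 1079 with its own probe set, and TDH1, whose product is linked to slow growth and stress, had 759.1 and 726.2. The probe set for TDH2 and TDH3 had 1432 and 1287, and the one for all 3 genes had 1025 and 951.4. TDH2 has no value of its own here, and every one of these 4 probe sets was lower on replicate 2 as deposited, by log2 differences from -0.15 to -0.06.

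ENO2, the enolase induced by glucose, had 1193 and 1088, and ENO1, the more constitutive isoenzyme, had 1106 and 1139. The probe set shared by ENO1 and ENO2 had 1196 and 1093. The shared probe set read 0.29% and 0.39% above that of ENO2 on the arrays, and whether these are separate readings was not tested. Each of them had a log2 difference of -0.13 as deposited. That of ENO1 was 0.04 as deposited and ran from -0.02 to 0.11 over 5 scalings, so no direction is read for it. How far any of these probe sets binds the transcript of the other copy was not tested.

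**Figure D2:**
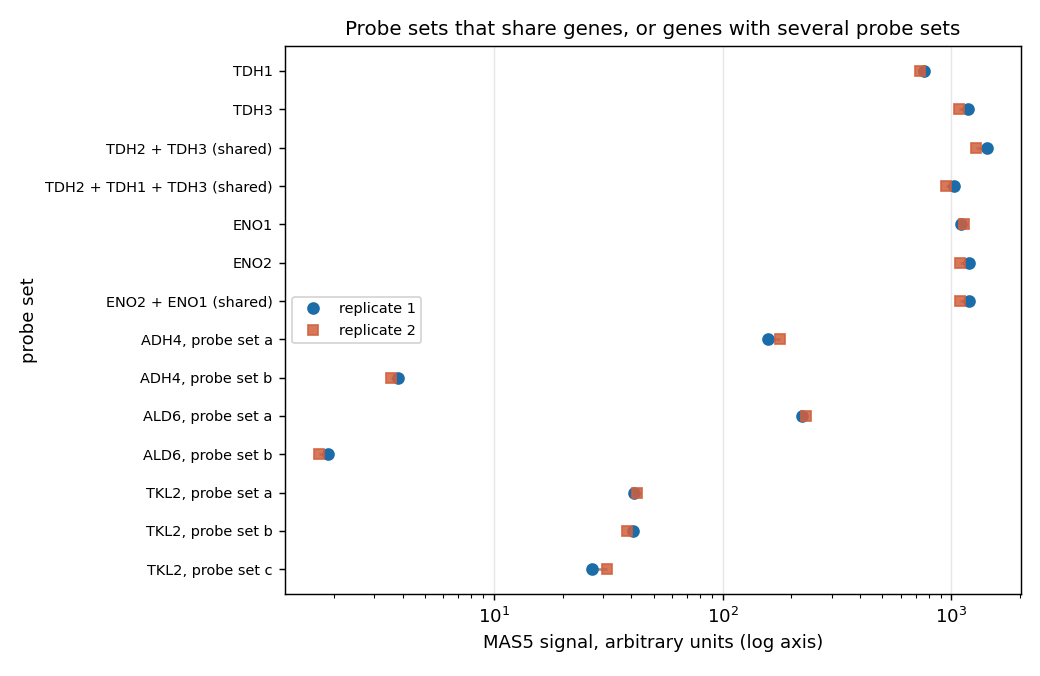
Signals on replicate 1 (blue circles) and replicate 2 (orange squares), log axis in arbitrary units, for the own and shared probe sets of the TDH and ENO genes and for the 3 members with several probe sets. ADH4 and ALD6 each have 1 bright and 1 very dim probe set, while the 3 probe sets of TKL2 lie between 26.8 and 42.1.

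Fermentation begins with pyruvate decarboxylase. PDC1, its main gene, had 1051 and 1006, PDC5, which can take over when PDC1 is lost, had 226.2 and 229.1, and PDC6, a form of sulfur-poor conditions, had 73.1 and 86.3. PDC6 was 1.18-fold higher on replicate 2. PDC1 differed by 1.04-fold and PDC5 by 1.01-fold.

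Alcohol dehydrogenases differ in direction of use and in place. ADH1, which makes ethanol, had 1362 and 1333 and was the brightest member. ADH2, which oxidises ethanol and is strongly repressed by glucose, had 193.7 and 186.9. ADH1 and ADH2 are close in sequence, and whether the ADH2 probe set reads some ADH1 transcript was not tested. ADH3, the mitochondrial enzyme, had 404.1 and 389.0.

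ADH5 had 34.2 and 29.8. ADH4, an unrelated dehydrogenase known for its response to low zinc, had 157.3 and 179.0 with its brighter probe set and 3.83 and 3.54 with the other. These differ so far that the level of ADH4 depends on which is used, and they also disagree in direction.

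Acetaldehyde can instead be oxidised to acetate and activated to acetyl-CoA. ALD6, the main cytosolic aldehyde dehydrogenase, had 223.3 and 231.0 with its brighter probe set and 1.89 and 1.72 with the other, which is close to the foreign-probe background. As for ADH4, the level of ALD6 depends on the probe set used, and its log2 difference of 0.05 became -0.04 when both were averaged. ALD4, the main mitochondrial form, had 194.8 and 202.0, and ALD5, a minor mitochondrial form, had 82.1 and 86.5. ACS2, the acetyl-CoA synthetase needed on glucose, had 292.1 and 293.9, and ACS1, the glucose-repressed form, had 42.9 and 38.3. ACS2 differed by 1.01-fold and ACS1 by 1.12-fold between the cultures.

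The genes of gluconeogenesis and pyruvate carboxylation held the widest differences of the whole list. PYC1 (YGL062W), a pyruvate carboxylase that feeds oxaloacetate to gluconeogenesis and the citric acid cycle, had 157.6 and 234.5 (mean 196.0 ± 54.3, SD, n = 2), 1.49-fold higher on replicate 2. Its isoenzyme PYC2 had 189.0 and 193.2, a gap of 1.02-fold. PCK1 (YKR097W), which makes phosphoenolpyruvate from oxaloacetate in the committed step of gluconeogenesis, had 98.0 and 67.5 (mean 82.8 ± 21.6, SD, n = 2), 1.45-fold lower on replicate 2.

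FBP1, fructose bisphosphatase, the other enzyme specific to gluconeogenesis, had 21.0 and 23.0. So PYC1 and PCK1, which act in sequence, moved in opposite directions, and FBP1 did not follow PCK1. On replicate 2, where PCK1 was lower, the galactose genes were lower by log2 differences from -0.54 to -0.12, and their part in the result was not tested. Other glucose-repressed members did not all share this direction. PYK2 (0.43) and FBP1 (0.14) were higher on replicate 2, and ACS1 (-0.16) and ADH2 (-0.05) were lower. HXK1 (-0.03) and GLK1 (0.02) changed sign with the scaling. None of these differences has a test, since each side is 1 array.

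Glycerol is made from a glycolytic intermediate by glycerol phosphate dehydrogenase. GPD1, the form induced by osmotic stress, had 259.7 and 253.2. GPD2, the form used without oxygen, had 42.7 and 37.3. GPD1 differed by 1.03-fold and GPD2 by 1.15-fold, both lower on replicate 2.

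The pentose phosphate pathway supplies NADPH and sugar phosphates. ZWF1, glucose phosphate dehydrogenase, had 175.4 and 171.2. GND1, the main phosphogluconate dehydrogenase, had 384.3 and 396.3, and its minor form GND2 had 71.6 and 63.6. TKL1, the main transketolase, had 419.2 and 422.1, and its minor form TKL2 had 41.1 and 42.1 with its brightest probe set, 40.5 and 38.2 with the second and 26.8 and 31.3 with the third. TAL1, the transaldolase, had 291.8 and 269.9. GND1 was higher and GND2 lower on replicate 2, and the probe sets of TKL2 did not share one direction. Of the 415 genes with mean signals from 256 to 1024, 293 were at least as far apart as GND1. For GND2 it was 294 of the 1393 genes from 64 to 256.

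Fructose 2,6-bisphosphate, a signal molecule, sets the balance of glycolysis and gluconeogenesis: the kinases of PFK26 and PFK27 make it and the phosphatase of FBP26 removes it. PFK26 had 100.9 and 97.0, PFK27 had 22.4 and 24.4, and FBP26 had 73.5 and 66.5. The kinase genes differed in opposite directions between the cultures, by 1.04-fold and 1.09-fold, gaps that many genes of like signal shared. Of the 1393 genes with mean signals from 64 to 256, 905 were at least as far apart as PFK26. For PFK27 it was 1255 of the 2740 genes from 16 to 64.

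**Figure D3:**
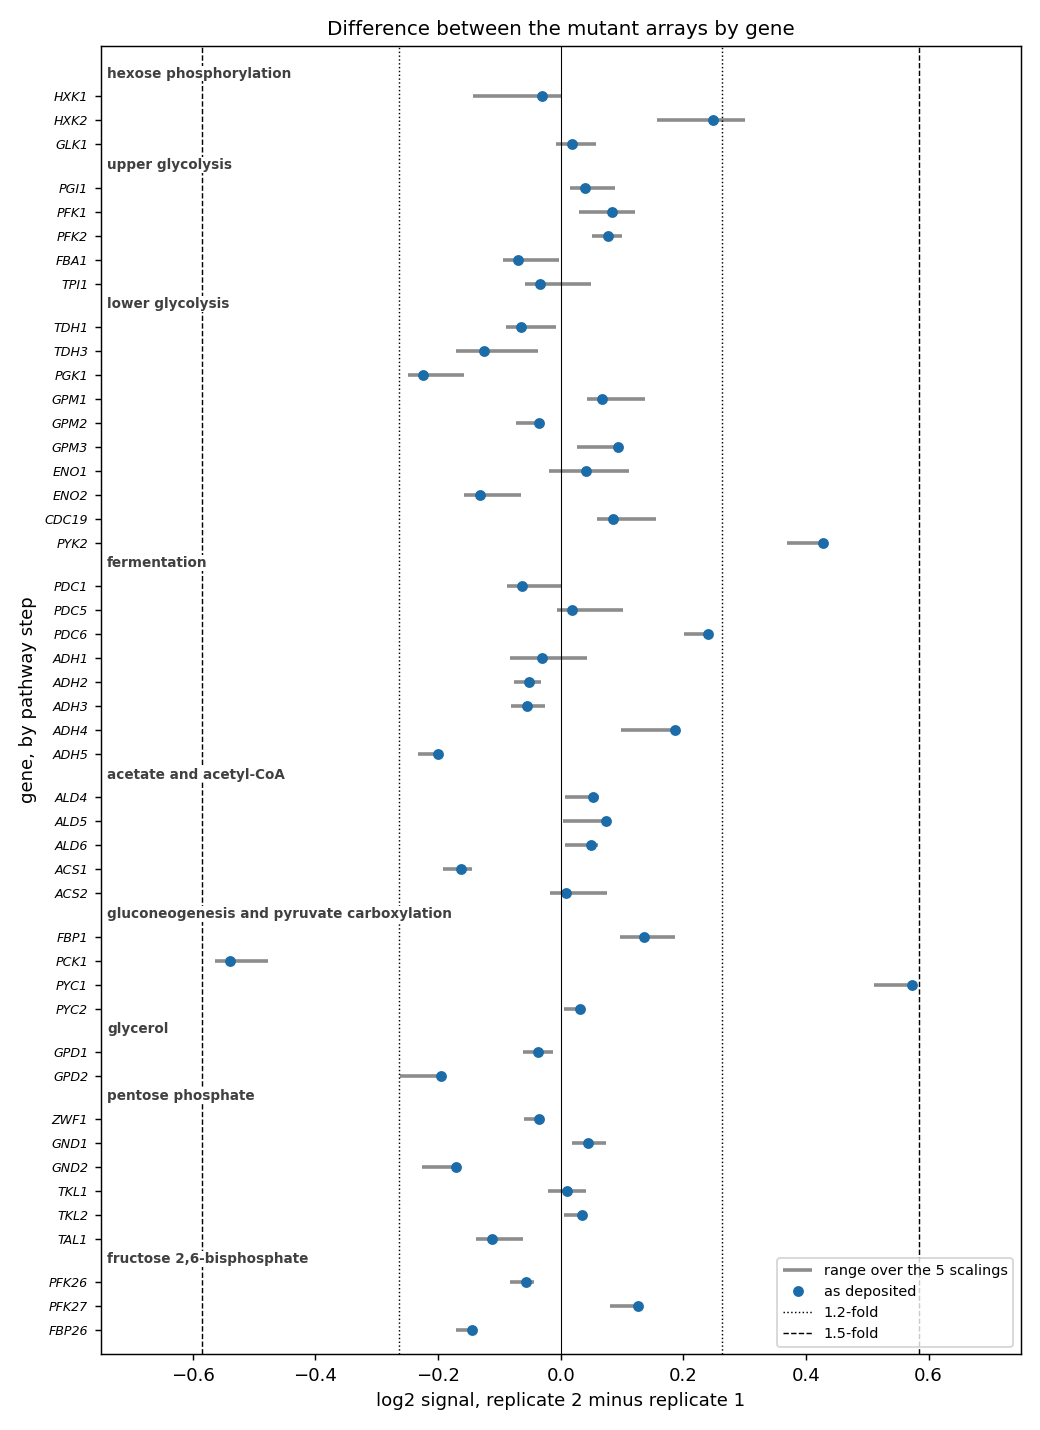
Log2 signal on replicate 2 minus replicate 1 for each gene by pathway step (blue points, as deposited), with grey bars for the range over the 5 scalings and vertical lines at 1.2-fold (dotted) and 1.5-fold (dashed). PYC1, PYK2 and PCK1 lie beyond 1.2-fold and 0 genes lie beyond 1.5-fold.

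Between the cultures, the members differed by a median log2 of 0.01, with 24 higher and 22 lower on replicate 2, and the median over all 5656 genes was 0.03, with 56.4% higher on replicate 2. The median size of the difference, sign aside, was 0.07 over the members, against 0.11 over all genes and 0.09 over the 3067 genes at or above the median signal. The size of the difference varied with signal, so the members and the other genes were also set side by side within bins of mean signal. From 16 to 64 the median size was 0.14 over 9 members, beside 0.11 over the 2731 other genes. From 64 to 256 it was 0.07 over 14 members, beside 0.09 over 1379, and from 256 to 1024 it was 0.04 over 13 members, beside 0.08 over 402. At 1024 and above it was 0.07 over 10 members, beside 0.11 over 15. The median of the members was the wider one in the dimmest bin and the narrower one in the others. Of the 46 members, 0 were more than 1.5-fold apart, beside 2.16% of all genes and 0.456% of those at or above the median signal. At 1.2-fold, a threshold chosen after the values were seen, 3 members were apart, beside 15.4% of all genes and 7.43% of those at or above the median signal.

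These 3 members were PYC1, PCK1 and PYK2, joined by HXK2 after quantile or loess normalization. With an offset of 50 added to every signal, PYK2 fell below 1.2-fold, at a log2 difference of 0.19, and PCK1 stood at -0.33 and PYC1 at 0.45. Among the 1393 genes with mean signals from 64 to 256, PYC1 had the highest log2 difference, 0.57, and 5 genes including PCK1 were as low as PCK1 or lower, at -0.54. PYK2, at 0.43, was among the 32 highest of the 2740 genes with signals from 16 to 64. HXK2, at 0.25, was among the 10 highest of the 415 genes with signals from 256 to 1024.

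**Figure D4:**
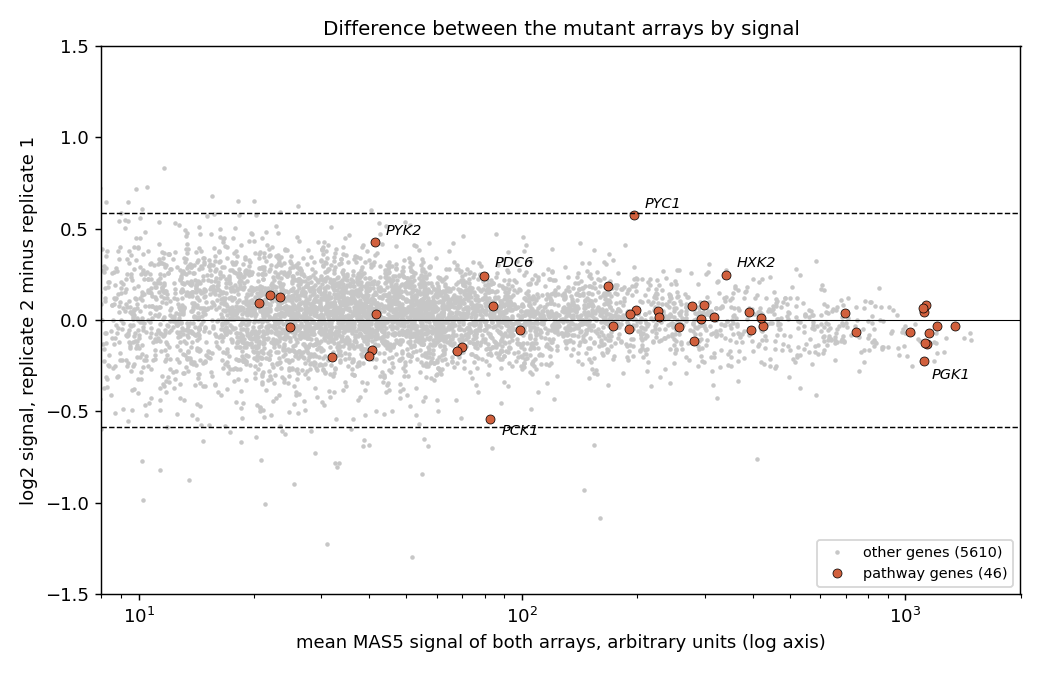
Log2 signal on replicate 2 minus replicate 1 against mean signal (log axis, arbitrary units) for the 46 pathway genes (orange) and the other genes (grey), with dashed lines at 1.5-fold. PYC1 and PCK1 lie just inside the lines on opposite sides; 445 genes, mostly dimmer, fall outside the plotted range.

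Of the 46 members, 37 kept their direction over 5 scalings, 19 higher and 18 lower on replicate 2. The scalings were as deposited, median centring, quantile, loess, and centring on probe sets with neighbouring numbers. The same count over all genes was not made, so whether 37 is usual cannot be read. The scalings rework the same 2 arrays, so a kept direction is not a replication. Some of the 37 had very small differences under a scaling, with FBA1 reaching -0.002 and ALD5 0.004. ADH4, ALD6 and TKL2 counted as higher by their brightest probe set, and another probe set of each was lower on replicate 2. HXK1, GLK1, TPI1, ENO1, PDC1, PDC5, ADH1, ACS2 and TKL1 changed sign, and no direction is read for these 9. GLK1, PDC5 and ACS2 did so under median centring alone, which takes 0.03 from every gene, so their change of sign says only that their differences were smaller than that. PYC1 ranged from 0.51 to 0.58, PCK1 from -0.56 to -0.48, PYK2 from 0.37 to 0.43 and HXK2 from 0.16 to 0.30. The directions of GPM1 and CDC19 (higher) and of PGK1, TDH3 and ENO2 (lower) held in the same scalings.

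A mean signal of at least 1000, a level chosen after the values were seen, was reached by 0.460% of all genes, 26 in number, and 10 of these were members. They were ADH1, TPI1, FBA1, ENO2, CDC19, TDH3, ENO1, PGK1, GPM1 and PDC1, with means from 1029 to 1347, and the next member below was TDH1 at 742.6. Most genes at this end of the array were lower on replicate 2 as deposited: 3 of the 26 were higher there, or 11.5%, and these were GPM1, ENO1 and CDC19. Over the 26 genes the median log2 difference was -0.10, and over the 10 members it was -0.05. After loess these medians were -0.03 and 0.02, with 8 of the 26 genes and 6 of the 10 members higher on replicate 2, so the direction of the bright members depends on the scaling. Loss of linearity near the top of the signal range was not tested, and it limits what can be read from the closeness of these means.

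Set out by family, 8 genes taken from textbook knowledge as main isoenzymes on glucose (HXK2, TDH3, GPM1, CDC19, PDC1, ADH1, GND1 and TKL1) had mean signals from 341.2 to 1347. The 14 other genes of those families had means from 20.6 to 742.6. These ranges overlap, with HXK1 (425.3), ADH3 (396.6) and TDH1 inside the upper one. The median size of the log2 difference between the cultures was 0.07 for the main isoenzymes and 0.06 for the others. Among these others, PYK2 and PDC6 had the widest differences. Isoenzymes of other families, such as PYC1 and PYC2, were not part of this comparison.

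Some members are also neighbours in the genome, by the gene order of the RefSeq assembly. GPD1 lies directly next to GPM2, and GPD2 lies 2 protein-coding genes from GPM3, so that paralogues of both families are paired on separate chromosomes. In the same way ENO1 lies 1 gene from GND2, and ENO2 lies 9 genes from GND1. ADH4 and HXK2 lie 2 genes apart.

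As deposited, the pairs of neighbours were as follows. GPD1 and GPM2 each had a log2 difference of -0.04, and ADH4 and HXK2 had 0.19 and 0.25. GPD2 and GPM3 had -0.20 and 0.09, ENO1 and GND2 had 0.04 and -0.17, and ENO2 and GND1 had -0.13 and 0.04. Probe sets of these neighbours also carry numbers only 1 to 9 apart, so place on the chromosome and place in the array's numbering cannot be told apart. Probe sets with a mean signal of at least 35.2 were also read around HXK2 and ADH4. The 100 of these numbered nearest to each gene had a median log2 difference of 0.09.

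Regulators and further enzymes of these pathways, from a list fixed alongside the members, gave 26 genes with their own probe sets, 13 higher and 13 lower on replicate 2, and their log2 differences had a median of -0.01. The 4 activators of glycolytic genes (GCR1, GCR2, TYE7 and RAP1) had means from 20.0 to 73.4, and the 10 genes of glucose repression and derepression had means from 11.7 to 105.0. GPP1, a glycerol phosphatase and the brightest of the list, had 339.5 and 333.4, and RPE1, of the pentose phosphate pathway, had 171.2 and 156.5. The widest differences belonged to NQM1, a paralogue of TAL1, with 84.8 and 116.1, and to SNF1, the kinase that relieves glucose repression, with 48.8 and 60.1. NQM1 was higher on replicate 2 by a log2 of 0.45, where TAL1 was lower by a log2 difference of -0.11. Of the 26 genes, 2 were more than 1.2-fold apart, beside 15.4% of all genes, and 0 were more than 1.5-fold apart, beside 2.16%.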

How the data were processed

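Total RNA (about 20 µg per sample, per the labels' protocols) was labelled with biotin and measured on 1 Affymetrix array per culture. The authors deposited 1 intensity per probe set and array on a linear scale. The submitters' processing notes name MAS5 as the tool, and no version or scaling target for it was found in the sources used here. Each array held 9335 probe sets. The platform annotation, which can be old, gives 1 gene for 6504, several for 328 and none for 2503. None of the 6504 symbols conflicted with the RefSeq table of assembly R64. A symbol without an entry there was kept as annotated and not counted apart, so a full match was not shown.

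Signals were used as deposited, on the log2 scale for differences, and the precision is limited by the number of arrays. The 6497 probe sets above 0 on both arrays were kept, and the brightest by mean log2 signal stood for a gene. Probe sets with several symbols were used only where all were members, which gave 3. Background was the 95th percentile of 13 foreign probe sets (4 mouse, 9 antisense bacterial). Other scalings were median centring, and quantile and loess normalization (limma 3.58.1, R 4.3.3). A local centring was added after the data were seen. It subtracted the median of the 100 single-gene probe sets nearest by number, among those with a mean signal of at least 35.2. Scripts (Python 3.11.15) were tested on simulated data. All members with a probe set are named. For the other pathway genes the rule took the 2 brightest and the 2 most different. The members and lists were chosen with earlier results of these data known. Promoter motifs and protein comparisons that had been planned were not analysed here.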

Additional observations from a re-analysis of the deposited data

How the results depend on the processing

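The count of members above background was 46 with the brightest foreign probe set or the dimmest probe set of each gene as well. The count over 1.5-fold, 0, was 0 under every scaling, with an offset of 50, with the 41 members at or above the median signal and after averaging the probe sets of each gene, and became 3 at 1.2-fold. The median log2 difference, 0.01, lay between -0.02 (median centring) and 0.03 (quantile and loess), and it changed sign with median centring, local centring and averaged probe sets. The median signal, 242.0 over the mean of both arrays, was 243.8 without replicate 1 and 242.9 without replicate 2. Among single genes, the offset of 50 moved 2 log2 differences by more than the SD among members, 0.17: PYK2 to 0.19, which ends its call at 1.2-fold, and PCK1 to -0.33. No paired analysis was possible because the samples form a single group. With 2 arrays, differences between cultures, labelling and hybridisation cannot be told apart.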
